A study of Mus musculus with 6 samples.

Results

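The triglyceride synthesis enzymes described here are 7 genes, Gpam, Agpat2, Agpat3, Lpin1, Lpin2, Dgat1 and Dgat2, of the 18193 genes that the arrays measured with a probe set of their own. They were chosen by name, as all probe sets whose platform gene symbol is one of these names. That gave 17 of the 45037 probe sets that are not array controls. Each gene is represented by its brightest probe set on the log2 scale, and the other probe sets serve as a check. All 7 genes and 14 of the 17 probe sets passed the filter on low signal.

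Gastrocnemius, a mainly fast calf muscle, came from male C57BL/6J mice that ate 1 of 3 diets for 15 weeks from 6 weeks of age, although the labels also give an age of 21 months. The HF+SFC+ALA diet was a high-fat diet (D12492, with 60% of its energy from fat, 20% from carbohydrate and 20% from protein). To it had been added 0.023% by weight of sodium ferrous citrate, an iron salt abbreviated SFC, and 0.2% of ALA, the heme precursor 5-aminolevulinic acid, as its phosphate. The HF diet was D12492 without additions, and the Control diet (D12450B) drew 10% of its energy from fat, 70% from carbohydrate and 20% from protein. Mice of each diet were fasted for 24 h or for 4 h, and each of the 6 combinations is 1 array of RNA pooled from an unstated number of mice, so that no combination has a replicate.

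Triglyceride is built by adding fatty acyl groups to glycerol 3-phosphate. Glycerol 3-phosphate acyltransferases such as GPAM make lysophosphatidic acid, AGPAT enzymes turn this into phosphatidic acid, lipins remove the phosphate to give diacylglycerol, and DGAT enzymes add the last acyl group. Muscle stores the product in lipid droplets, from which it is drawn as fuel, and the same intermediates also feed phospholipid synthesis. Fat cells make triglyceride by the same enzymes, and in these bulk samples a change in the number of cells of a type and a change in RNA per cell cannot be told apart.

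The promoter windows of Gpam and Lpin1 are shown because these are the genes that passed a test here and for which RefSeq promoter sequence was at hand. Of the 7 genes, 5 matched the RefSeq promoter table (build GRCm38.p6), with 8 windows of 300 bases in all, each from 250 bases before a transcription start to 50 after it. Dgat1 and Dgat2 were not matched. Capitals mark AGGTCA, the half-site read by many nuclear receptors.
Gpam, chr19:55099428-55099727, minus strand: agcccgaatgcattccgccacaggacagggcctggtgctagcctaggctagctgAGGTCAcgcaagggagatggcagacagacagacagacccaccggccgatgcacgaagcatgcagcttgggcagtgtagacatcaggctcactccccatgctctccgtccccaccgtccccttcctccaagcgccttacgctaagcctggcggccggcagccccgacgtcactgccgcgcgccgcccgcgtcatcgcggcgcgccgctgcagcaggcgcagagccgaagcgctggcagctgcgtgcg
Gpam, second start, chr19:55127189-55127488, minus strand: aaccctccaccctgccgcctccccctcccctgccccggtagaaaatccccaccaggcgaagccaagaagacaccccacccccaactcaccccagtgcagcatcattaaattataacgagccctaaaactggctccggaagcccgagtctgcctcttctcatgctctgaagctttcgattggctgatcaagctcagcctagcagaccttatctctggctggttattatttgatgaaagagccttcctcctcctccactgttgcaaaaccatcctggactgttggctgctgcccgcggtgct
Lpin1, chr12:16610917-16611216, minus strand: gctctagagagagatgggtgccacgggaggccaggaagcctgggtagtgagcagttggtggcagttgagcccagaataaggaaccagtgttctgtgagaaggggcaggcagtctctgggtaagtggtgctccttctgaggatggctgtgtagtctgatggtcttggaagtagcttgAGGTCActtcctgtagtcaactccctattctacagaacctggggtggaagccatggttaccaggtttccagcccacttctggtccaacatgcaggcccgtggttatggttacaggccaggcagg
Motifs were searched on both strands. AGGTCA stood at bases 55 to 60 of the first Gpam window and at bases 177 to 182 of the Lpin1 window, counted from the 5′ end. It occurred in 2 of the 8 windows, and in 16.3% of all 32851 promoter windows of this length. The E-box CACGTG and the forkhead motif GTAAACA each occurred in 1 window, both of Lpin2, against 7.15% and 3.65% of all windows. The sterol regulatory element TCACNCCAC occurred in 0 of the 8 windows and in 1.24% of all. None of these 4 motifs overlapped another in the windows of the 7 genes. A match describes letters only.

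The values are MAS5 signals on a linear scale, with a median per array between 63.0 and 69.5 over the probe sets that are not controls. All 8 muscle fibre genes checked (among them Ckm, muscle creatine kinase, and Acta1, skeletal actin) were above the floor in every pool, with a summed signal of 336331 to 390073 per pool. Summed signal of 7 slow-fibre genes ran from 62397 in the HF pool at 4 h to 93438 in the HF pool at 24 h. For the actin control, signal at the 3′ end over that at the 5′ end was 1.52 in the HF pool at 4 h and 1.08 to 1.22 in the others, and the part of this in the diet differences was not tested. Signals of different probe sets are not compared with each other.

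**Figure D1:**
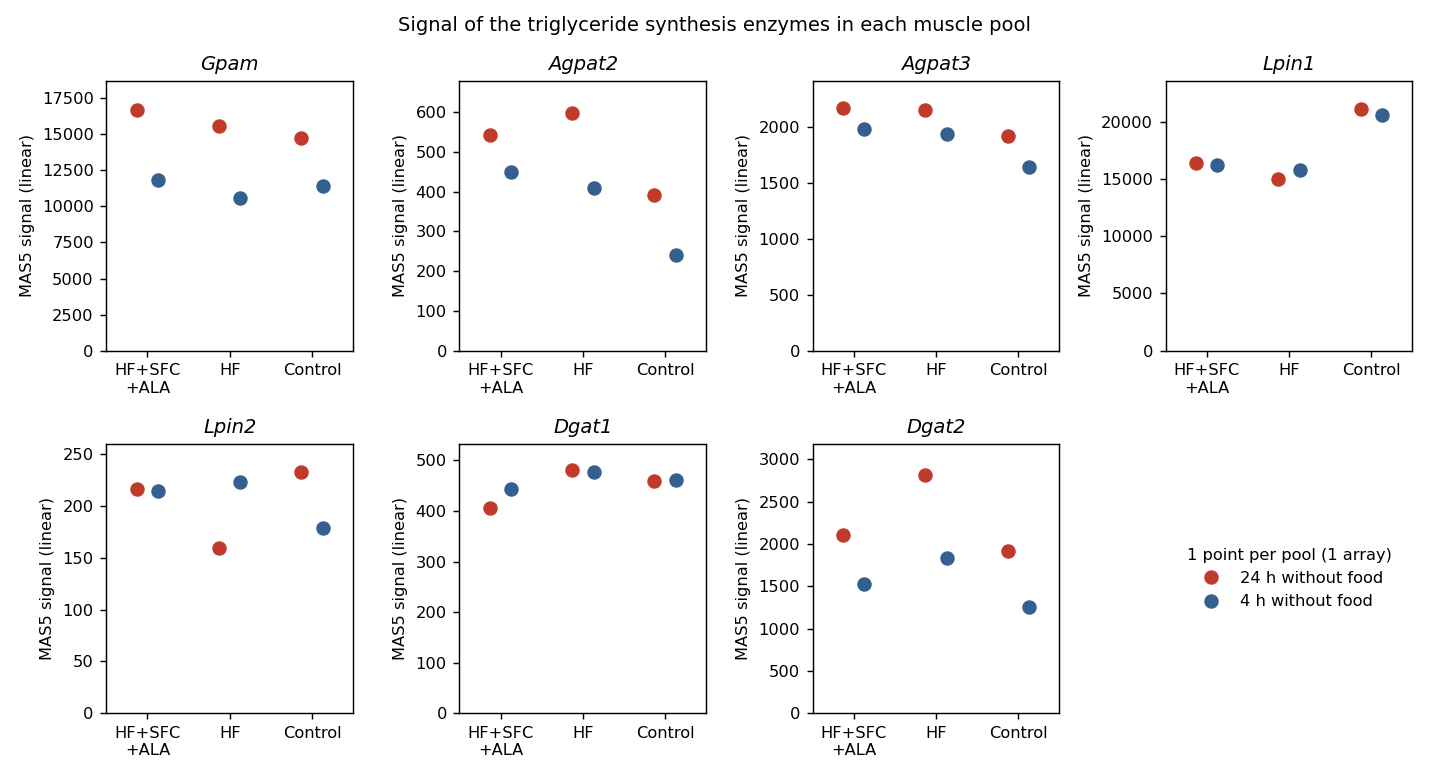
MAS5 signal (linear, from 0) of the representative probe set of each gene in the 6 pools, by diet, with 24 h of fasting in red and 4 h in blue; each point is 1 pool and there are no error bars because no combination was repeated. Gpam and Dgat2 are higher at 24 h in every diet, and Lpin1 is lower in all 4 high-fat pools than in both Control pools.

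After 24 h of fasting, against 4 h, the transcripts of 1 enzyme of the first step and 1 enzyme of the last step of the pathway were higher. Gpam rose 1.39-fold and Dgat2 1.48-fold, in every diet, and the other 5 genes did not pass the test. The test was limma on log2 signal with diet and fasting time in the model, fitted over 11526 genes, with Benjamini-Hochberg adjustment over all of them and a threshold of 0.05. Of the 7 genes, 2 rose and none fell, where 1.49% of all genes rose and 0.92% fell. Of all genes 172 rose and 106 fell, or 167 and 211 with each array centred on its median, under which Gpam and Dgat2 still passed. The median log2 difference was 0.17 for the 7 genes and 0.01 for all genes tested.

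Gpam encodes the mitochondrial acyltransferase that starts glycerolipid synthesis. Its signal was 16681 in HF+SFC+ALA, 15599 in HF and 14768 in Control pools at 24 h, against 11802, 10609 and 11391 in the same order of diets at 4 h. The fasting times did not overlap, which held for 10.6% of all genes in this direction. The log2 difference was 0.48 ± 0.07 (SE of the fit over 6 pools, 95% interval 0.33 to 0.62, adjusted p = 0.00978), with 0.50 in HF+SFC+ALA, 0.56 in HF and 0.37 in Control. The highest pool was 1.57-fold above the lowest, and the widest gap in the order of pools lay between the 4 h and 24 h pools (0.32 on the log2 scale, against a residual SD of 0.08). A second Gpam probe set, with signals of 221 to 498, gave 0.28 in HF+SFC+ALA, 1.17 in HF and -0.01 in Control.

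Dgat2 encodes an acyltransferase of the endoplasmic reticulum and lipid droplets that completes triglyceride. Its signal was 2104 in HF+SFC+ALA, 2814 in HF and 1911 in Control pools at 24 h, against 1527, 1834 and 1253 in the same order at 4 h. Here too every 24 h pool lay above every 4 h pool, though Control at 24 h was only just above HF at 4 h. The log2 difference was 0.56 ± 0.08 (95% interval 0.39 to 0.74, adjusted p = 0.00978), and the 3 diets gave 0.46 in HF+SFC+ALA, 0.62 in HF and 0.61 in Control. The other Dgat2 probe set was also higher at 24 h in each diet, by 0.13, 0.27 and 0.48 in the same order. Its fasting times overlapped, since HF+SFC+ALA (917.9) and Control (905.5) at 24 h lay below HF at 4 h (979.8).

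Agpat2, whose loss in humans causes a congenital lack of fat tissue, stood at 0.51 ± 0.13 (adjusted p = 0.0855) without passing. Its signal was 542 in HF+SFC+ALA, 599 in HF and 391 in Control pools at 24 h, against 449, 409 and 240 at 4 h, so that each diet was higher at 24 h but the fasting times overlapped. Agpat3, a related acyltransferase, had a smaller difference of 0.17 ± 0.07 (adjusted p = 0.274), with signals of 1920 to 2162 at 24 h against 1639 to 1974.5 at 4 h. The 3 other Agpat3 probe sets gave mean differences of -0.10, -0.02 and -0.05.

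The lipins and Dgat1 had fasting differences close to 0 that did not pass. Lpin1 gave -0.01 ± 0.06 (95% interval -0.15 to 0.13), Dgat1 -0.04 ± 0.12 (-0.30 to 0.22) and Lpin2 -0.03 ± 0.20 (-0.48 to 0.43). The narrow interval of Lpin1, from its representative probe set, lay wholly below the mean difference of Gpam, whereas that of Lpin2 is wide. The second Lpin1 probe set gave fasting differences of -0.04 in HF+SFC+ALA, -0.06 in HF and 0.32 in Control. For Lpin2 the diets differed in direction, with 0.02 in HF+SFC+ALA, -0.48 in HF and 0.38 in Control.

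**Figure D2:**
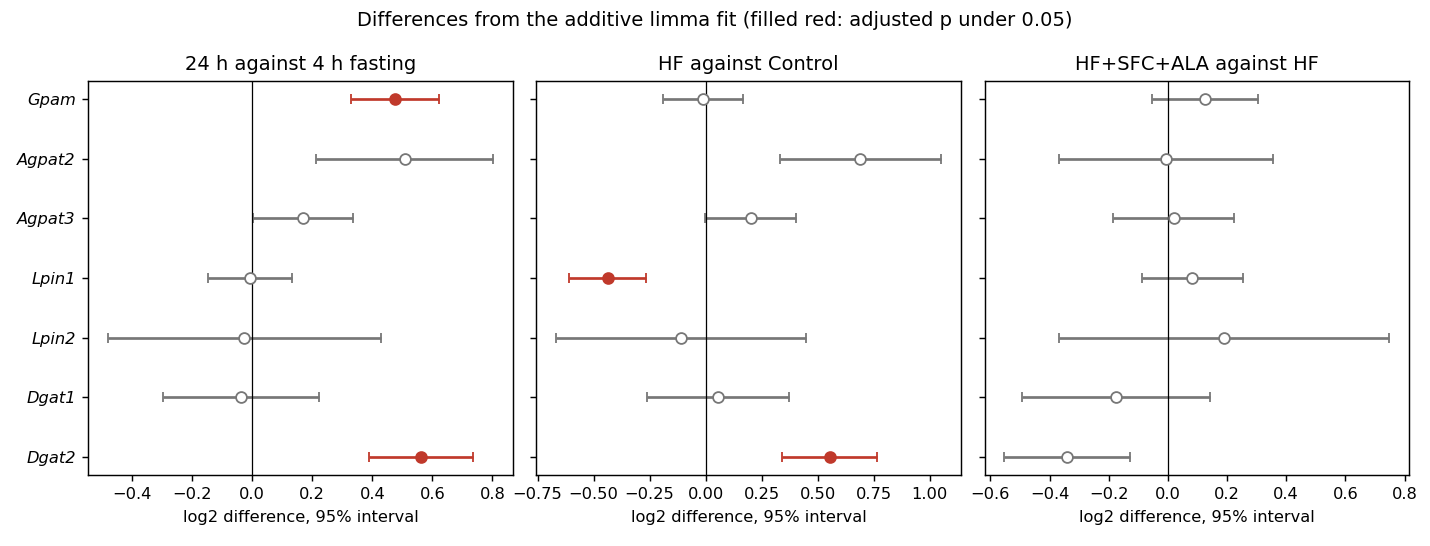
Log2 differences of the 7 genes in the 3 comparisons from the additive limma fit over 6 pools, with 95% intervals as bars; filled red points passed an adjusted p of 0.05. Gpam and Dgat2 pass for fasting, Dgat2 and Lpin1 in opposite directions for HF against Control, and none for HF+SFC+ALA against HF.

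The next question was how the HF diet differed from the Control diet. Dgat2 rose 1.47-fold in HF, Lpin1, the main lipin of muscle, fell 1.35-fold, and the other 5 genes did not pass. Over all 11526 genes 0.564% rose and 0.321% fell, that is 65 and 37 genes. With each array centred on its median, which moved the median difference of all genes to -0.112, 81 rose and 271 fell, and Dgat2 and Lpin1 still passed in the same directions. The median of the 7 log2 differences was 0.06, beside 0.00 for all genes.

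Lpin1 encodes a phosphatidate phosphatase that makes diacylglycerol and also acts in the nucleus as a coactivator of transcription. Its signal was 15043 in HF at 24 h and 15768 in HF at 4 h, against 21113 and 20601 in Control at the same times. The HF+SFC+ALA pools were close to HF, at 16379 and 16231. All 4 high-fat pools therefore lay below both Control pools, which held for 10.7% of all genes in this direction, and the only gap in the order of pools above the residual SD (0.08) was the one of 0.33 between the high-fat and Control pools. The log2 difference of HF against Control was -0.44 ± 0.08 (95% interval -0.61 to -0.27, adjusted p = 0.0346), with -0.49 at 24 h and -0.39 at 4 h. Over both high-fat diets, in a comparison that shares the HF and Control pools with this one, it was -0.40 ± 0.07 (adjusted p = 0.0328), and Lpin1 was the only one of the 7 genes to pass there, where 0.26% of all genes fell (47 rose and 30 fell, or 78 and 177 with arrays centred on the median, where Agpat2 passed beside Lpin1). The second Lpin1 probe set had the same direction, at -0.65 at 24 h and -0.27 at 4 h for HF against Control.

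Dgat2 gave 0.55 ± 0.09 for HF against Control (95% interval 0.34 to 0.77, adjusted p = 0.0329), with 0.56 at 24 h and 0.55 at 4 h. Its second probe set gave 0.38 and 0.59. Because it was also higher after 24 h of fasting, the Control pool at 24 h (1911) stood above the HF pool at 4 h (1834), so the diets separate only at the same fasting time. Over both high-fat diets the difference was smaller, at 0.38 ± 0.08, and did not pass (adjusted p = 0.0761).

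Agpat2 had a larger estimate than Dgat2 with a larger error and did not pass. HF against Control gave 0.69 ± 0.16 (a 1.61-fold difference, adjusted p = 0.0995), and both high-fat diets together 0.69 ± 0.14 (adjusted p = 0.0657). In the second of these it passed with arrays centred on the median (0.61, adjusted p = 0.0482) and without the Control pool at 24 h (0.83, adjusted p = 0.00913) or the HF pool at 4 h (0.70, adjusted p = 0.045). All 4 high-fat pools, at 409 to 599, lay above both Control pools, at 240 and 391, as 10.4% of all genes did. With 2.49-fold between its lowest and highest pool Agpat2 had the widest range of the 7 genes, and it has no second probe set to check. Agpat3 was also higher in each high-fat pool than in both Control pools by its brightest probe set (0.20 ± 0.09 for HF, adjusted p = 0.345), and 2 of its 3 other probe sets had a positive mean as well (0.24 and 0.23) while the other was at -0.25. Of the 2 with a positive mean, only the first was positive at both times (0.34 at 24 h and 0.13 at 4 h), and the second gave -0.19 at 24 h and 0.65 at 4 h.

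Gpam, Dgat1 and Lpin2 did not pass, with -0.01 ± 0.08, 0.06 ± 0.14 and -0.11 ± 0.25 for HF against Control. Dgat1, the other DGAT enzyme, varied least, with signals of 406.5 to 481 in all 6 pools and no gap between neighbours above its residual SD. For Lpin2, a lipin best known from liver, the signal was 160 in HF against 232 in Control at 24 h, but 223 in HF against 178 in Control at 4 h. These are opposite directions, -0.54 at 24 h and 0.32 at 4 h.

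**Figure D3:**
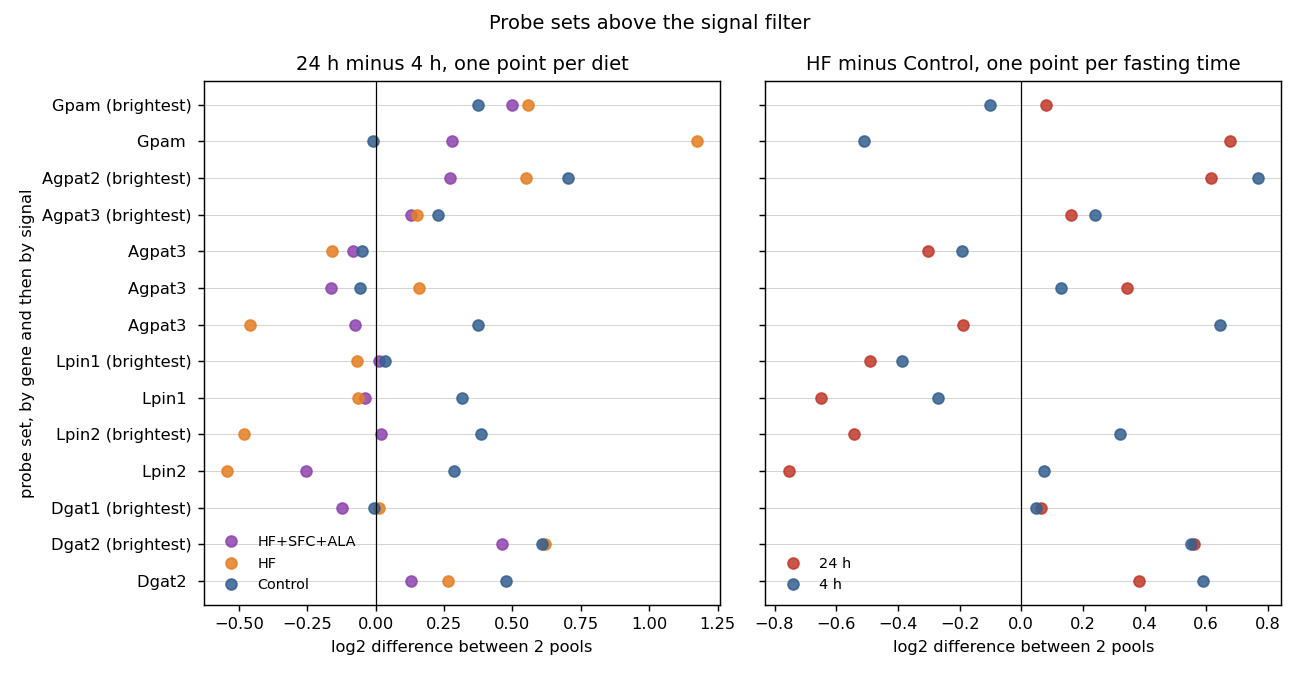
Log2 differences between 2 pools for the 14 probe sets above the signal filter, listed by gene and then by signal; the left panel gives 24 h minus 4 h in each diet and the right panel HF minus Control at each fasting time. Both Dgat2 and both Lpin1 probe sets keep 1 direction for diet, while the Agpat3 probe sets lie on both sides of 0.

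Adipocyte genes moved with diet as well. Of 11 adipocyte markers 7 were tested, and 3 rose in HF against Control: Adipoq (adiponectin, 6.18-fold), Lep (leptin) and Cidec (a lipid droplet protein, 3.76-fold). Adipoq had a signal of 4280 in HF against 577 in Control at 24 h and of 4637 in HF against 901 in Control at 4 h. The summed signal of the 8 markers with a probe set was 29311 and 29059 in HF+SFC+ALA, 37479 and 33258 in HF, and 27215 and 23311 in Control at 24 h and 4 h. Among the 8, Fabp4 made up most of this sum in every pool, and it is also expressed by endothelial cells. Its signal was 27979 and 26109 in HF+SFC+ALA, 31773 and 26497 in HF, and 26207 and 21626 in Control at 24 h and 4 h. At or under the floor were 2 markers, Lep and Retn (resistin), both in the Control pool at 24 h.

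For fasting, the differences of Dgat2 and Agpat2 had the opposite sign to most of these markers. All but 1 of the 7 tested markers had a negative difference for 24 h against 4 h, with a median of -0.68, whereas Dgat2 and Agpat2 stood at 0.56 and 0.51. The exception was Fabp4, at 0.21 ± 0.07 (adjusted p = 0.134). Both the Fabp4 signal and the summed marker signal, of which it makes up most, were higher at 24 h in every diet. For HF+SFC+ALA against HF none of the 7 markers passed and their median was -1.06, beside -0.34 for Dgat2 and -0.01 for Agpat2. Adipoq was higher in HF+SFC+ALA than in Control at the same fasting time (796 against 577 at 24 h, 1941 against 901 at 4 h). So were Lep, Retn, Cidec and Fabp4. Pck1 was lower at both times (68 against 86 at 24 h, 77 against 219 at 4 h). Trarg1 was lower at 24 h (115 against 172) and higher at 4 h (221 against 127). Dgat2 (2104 against 1911 at 24 h, 1527 against 1253 at 4 h) and Agpat2 (542 against 391, and 449 against 240) were higher at both times. Lpin1, which fat cells also express, was lower in HF than in Control. The part of fat cell RNA in the diet differences of Dgat2, Agpat2 and Lpin1 was not tested. Of 6 fibroblast genes 3 rose in HF against Control (summed signal 33036 to 33675 in HF, 27021 to 27306 in Control). All 7 macrophage genes had a positive difference, with none passing (3010 to 3244 in HF, 2015 to 2160 in Control). Of 4 endothelial genes none passed (3158 to 3254 in HF, 3214 to 3238 in Control), and the part of these cells was not tested either.

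**Figure D4:**
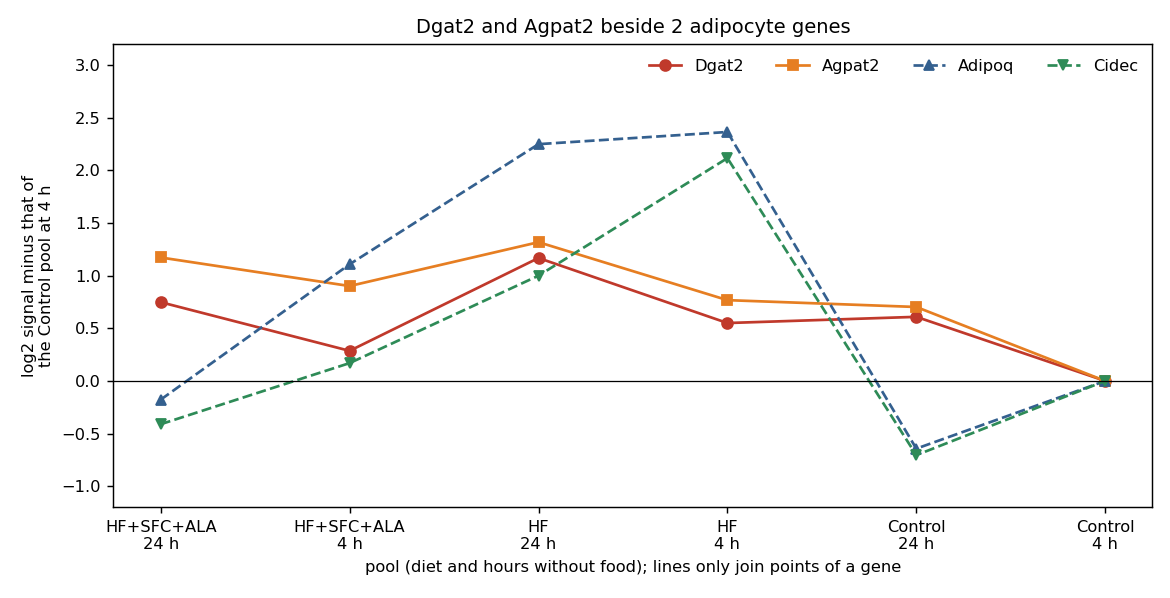
Log2 signal of Dgat2, Agpat2 and the adipocyte genes Adipoq and Cidec in each pool, minus that of the same gene in the Control pool at 4 h; 1 point per pool, and lines only join the points of a gene. At each fasting time Adipoq, Cidec and Dgat2 are highest in HF and lowest in Control. Of the genes drawn, only Dgat2 and Agpat2 are higher at 24 h than at 4 h in every diet. The adipocyte marker Fabp4, which is not drawn, was also higher at 24 h in every diet.

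The supplement was then compared with HF alone, which asks whether iron citrate with the heme precursor altered the response to the high-fat diet. None of the 7 genes passed, and of all 11526 genes 0 passed in the limma fit (0%), while 585 (5.08%) had an unadjusted p under 0.05. Dgat2 was the only one of the 7 with an unadjusted p under 0.05, at -0.34 ± 0.09 (95% interval -0.55 to -0.13, adjusted p = 0.661). Its signal was 2104 in HF+SFC+ALA against 2814 in HF at 24 h, and 1527 against 1834 at 4 h. The direction was thus the same at both times, and the HF+SFC+ALA pools stood between HF and Control. Its second probe set gave -0.36 at 24 h and -0.22 at 4 h.

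The remaining genes had smaller differences for HF+SFC+ALA against HF. Lpin1 was at 0.08 ± 0.08 (95% interval -0.09 to 0.25), so that the upper end of the interval is smaller than the whole of its difference between HF and Control. Gpam was at 0.13 ± 0.08 (-0.05 to 0.31), Agpat3 at 0.02 ± 0.09 (-0.18 to 0.22) and Agpat2 at -0.01 ± 0.16 (-0.37 to 0.36). Dgat1 was at -0.17 ± 0.14 (-0.49 to 0.14) and Lpin2, with the widest interval, at 0.19 ± 0.25 (-0.37 to 0.75).

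Whether fasting acted differently between diets was tested with an interaction term, which leaves 1 residual degree of freedom. None of the 7 genes passed for the high-fat diets minus Control, where 0.885% of all genes did, or for HF+SFC+ALA minus HF, where 0% did. The difference in response was 0.15 ± 0.19 for Gpam and -0.07 ± 0.19 for Dgat2 in the first of these tests. The first test drew its variance almost wholly from other genes (871 prior degrees of freedom), and on simulated data it made more false calls than its threshold allows, so the share of 0.885% is likely too high.

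Genes around the 7 enzymes were counted from lists of the pathway. Of 5 tested genes for other enzymes of these steps, none passed for fasting or for HF against Control. Gpat3, the acyltransferase of the endoplasmic reticulum that makes the same product as GPAM, had the largest differences of these, at 0.54 ± 0.16 for fasting (adjusted p = 0.117) and -0.58 ± 0.19 for HF against Control (adjusted p = 0.216). Among 9 genes that supply glycerol 3-phosphate and acyl-CoA none passed either. Slc27a1, a fatty acid transporter, stood at 0.47 ± 0.12 and Acsl3, an acyl-CoA synthetase, at -0.44 ± 0.11 for fasting (adjusted p = 0.0731 each). The medians of both lists lay between -0.09 and 0.07 in the 2 comparisons, beside 0.01 for fasting and 0.00 for HF against Control over all genes.

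In the phospholipid branch, 1 of 11 genes rose with fasting, Chkb, the choline kinase of muscle (0.55 ± 0.10, adjusted p = 0.0316), and none passed for HF against Control. Of 13 lipid droplet and lipolysis genes 1 rose with fasting, Pnpla2, the lipase that opens triglyceride breakdown (0.49 ± 0.08, adjusted p = 0.0213). In HF against Control 1 of the 13 rose, G0s2, which inhibits that lipase (1.62 ± 0.17, adjusted p = 0.00652). Among 16 regulators 1 fell with fasting, Ppargc1a, a coactivator with which lipin-1 is known to act (mean log2 signal 10.34 at 24 h against 11.34 at 4 h, SE of the difference 0.17, adjusted p = 0.0212), and none passed for HF. Its signal was 1239 in HF+SFC+ALA, 1798 in HF and 978 in Control at 24 h, against 2314, 2515 and 2992 in the same order at 4 h. The fall was smaller in the high-fat diets than in Control by the interaction test (0.92 ± 0.19, adjusted p = 0.000449), the test that made too many false calls on simulated data. Srebf1, a transcription factor of lipid synthesis that acts on Gpam in liver, stood at -0.24 ± 0.08 for fasting without passing (adjusted p = 0.167).

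**Figure D5:**
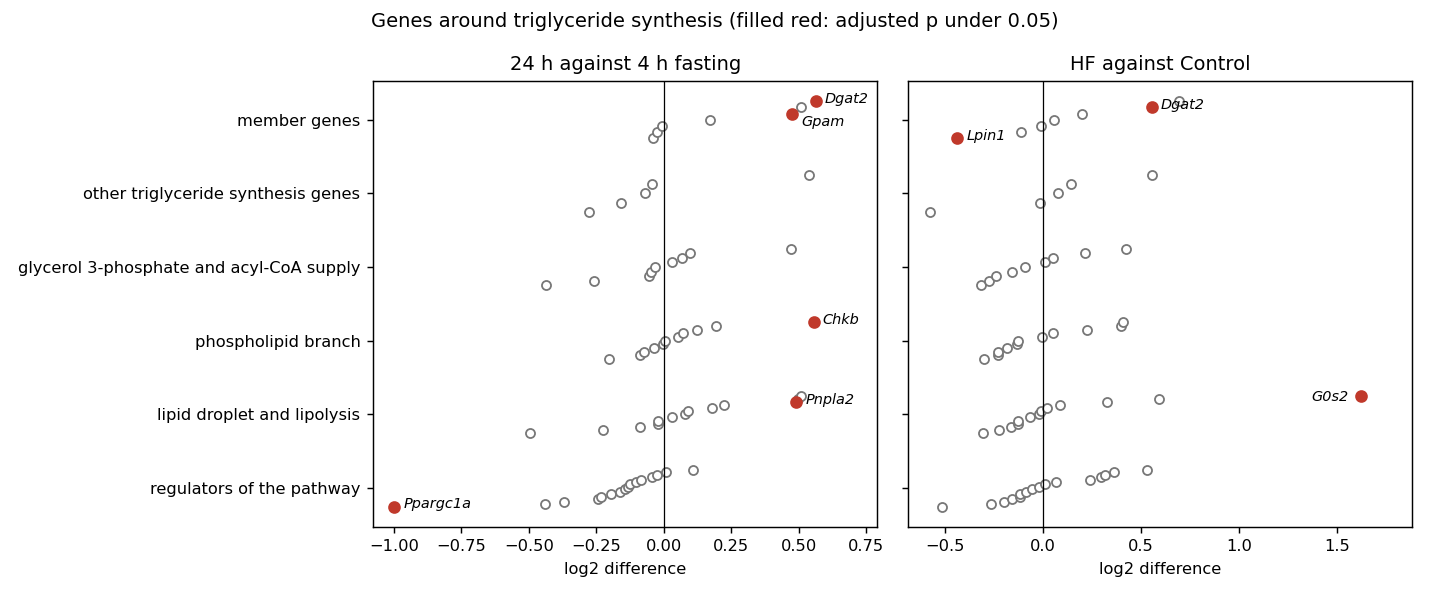
Log2 difference of each tested gene in the 7 enzymes and in 5 lists of the pathway, for 24 h against 4 h and for HF against Control; each point is 1 gene, filled red where the adjusted p was under 0.05, and its height within a row only spreads the points. For fasting, Gpam and Dgat2 stand with Chkb and Pnpla2 on the higher side and Ppargc1a on the lower side.

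Patterns over the 6 pools were compared for Agpat2 and Dgat2, the genes of the 7 with the widest range. Among 4632 genes with a range of at least 1.5-fold, Ankrd1 (Pearson r = 0.999 over 6 pools), Comp (0.986) and Plxna3 (0.985) were most like Agpat2. Lratd2 (0.983), Ccne1 (0.981) and Cd209f (0.974) were most like Dgat2. Of the 4632 genes, 98 (2.12%) reached r of 0.9 or more with Agpat2 and 45 (0.972%) with Dgat2. The named genes are the highest of a search through all 4632 over only 6 pools. Whether these correlations exceed those of unrelated genes was not tested.

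The calls rest on few arrays. Leaving out either HF+SFC+ALA pool ended the calls of Gpam and Dgat2 for fasting and of Lpin1 and Dgat2 for HF against Control. The differences stayed of like size (for fasting, 0.44 to 0.53 for Gpam and 0.54 to 0.61 for Dgat2 over the 6 pools left out in turn). For fasting, leaving out either pool of a diet gives the same difference, because the pool that remains has no partner. The 6 omissions are therefore not 6 separate checks of the fasting differences. Leaving out the HF pool at 24 h also ended both HF calls, and without the Control pool at 24 h Agpat2 passed for HF in place of Lpin1. Over both high-fat diets, Lpin1 lost its call without either HF+SFC+ALA pool or without the Control pool at 24 h. Without that Control pool Agpat2 alone of the 7 passed, and 3 genes (Lpin1, Agpat2 and Dgat2) passed without the HF pool at 4 h. No gene of the 7 passed in any comparison without the signal filter or without the trend in the variance.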

How the data were processed

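RNA of 6 pools was hybridised to 1-colour Affymetrix arrays, 1 array per diet and fasting time. The deposited values are MAS5 signal intensity on a linear scale, per the submitters' processing notes. For its version and target value, nothing is given in the sources used here. These deposited intensity values have the same mean on each array once the lowest and highest 2% of probe sets are left out (500.004). No counts or detection calls were used, so the number of arrays limits the precision.

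Probe sets were named through the platform annotation (34945 with 1 symbol, 932 with several, 9160 with none), and 34741 symbols were updated through the gene identifier. A floor at the 30th percentile of signal (26.4) was applied before log2. The brightest probe set stood for each gene, and genes with a mean log2 signal under the median of all probe sets (5.88) were left out, which left 11526 of 18193 genes. limma 3.58.1 (R 4.3.3) fitted diet plus fasting time with an intensity trend (2 residual and 7.27 prior degrees of freedom) and Benjamini-Hochberg adjustment at 0.05. With 1 pool per combination, the error is the departure from additive effects of diet and time. Nothing states how many mice a pool holds, so p-values do not measure the spread between mice. Genes named from the pathway lists are those that passed or had some of the largest differences in their list, and the 3 most like genes were taken for the 2 enzymes of widest range. On simulated data the additive fit made false calls at about the threshold's share, and the interaction with the high-fat diets more than that. The simulated errors were independent between pools and drawn from the variance that the additive fit had itself estimated. The simulation therefore cannot show the share of false calls that the additive fit made in the real pools. The genes and lists were chosen with earlier results of these data known. Alternatives covered normalization, scaling, filter, floor, probe sets, variance model, model terms and pools left out. Tables were handled in Python 3.11.15 with pandas 2.3.3, and figures drawn with matplotlib 3.10.9.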

Additional observations from a re-analysis of the deposited data

Results flagged for a closer look

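Lpin2 moved in opposite directions between diets and between fasting times. For 24 h against 4 h its log2 difference was -0.48 in HF and 0.38 in Control, and for HF against Control it was -0.54 at 24 h and 0.32 at 4 h. Each of these differences compares 1 pool with 1 pool, and they share the same 4 pools. The interaction of fasting with both high-fat diets against Control was -0.61 ± 0.43 (limma, adjusted p = 0.924), and the opposition between HF alone and Control was not tested. The second Lpin2 probe set gave -0.54 in HF and 0.29 in Control for fasting.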

How the results depend on the processing

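Each comparison was recomputed under other settings. Of 556 values for single genes, 472 kept their direction and their side of the threshold, 38 lost a call, 5 gained one and 41 changed sign; none of the sign changes was in a gene and comparison that had passed. The number of the 7 genes that passed for fasting was 2, and it was 0 with no signal filter, with the mean over probe sets, with the second brightest probe set and with no intensity trend, and 1 (Gpam) with fasting time alone in the model. For HF against Control the number was 2, and it was 0 under those first 4 settings and with diet alone. For both high-fat diets it was 1, and it was 2 with arrays centred on the median and 0 under the same 4 settings and with diet alone. With 1 pool left out at a time the number ran from 0 to 2 for fasting, from 0 to 2 for HF against Control and from 0 to 3 for both high-fat diets. It stayed at 0 for HF+SFC+ALA against HF and for both interactions in all settings run. The cause of these changes was not tested, except that the second brightest probe set gives no value for Agpat2 and Dgat1 and the mean over probe sets none for Lpin2. In the additive fit the HF against Control difference also does not depend on the HF+SFC+ALA pools. Leaving out 1 of those pools therefore changed only its error estimate and p-values.

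Sign changes under settings that kept all pools were as follows. For fasting, the mean over probe sets gave 0.032 for Lpin1 and 0.022 for Dgat1, and the second brightest probe set -0.10 for Agpat3 and 0.071 for Lpin1. For HF against Control, centring gave -0.056 for Dgat1, the mean over probe sets 0.036 for Gpam, and the second brightest probe set 0.084 for Gpam and -0.25 for Agpat3. For HF+SFC+ALA against HF, centring gave 0.065 for Agpat2 and the second brightest probe set -0.079 for Lpin2. For both high-fat diets, centring gave -0.026 for Gpam, the mean 0.015 for Dgat1 and the second brightest probe set -0.15 for Agpat3. For the interaction with the high-fat diets, the mean gave 0.036 for Dgat1. For that of HF+SFC+ALA minus HF, centring gave -0.005 for Gpam and -0.0096 for Lpin1, and the mean -0.13 for Gpam and -0.068 for Lpin1. There the second brightest probe set gave -0.30 for Gpam, 0.024 for Agpat3, -0.16 for Lpin1 and -0.13 for Lpin2.

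Leaving out 1 pool at a time gave ranges that span 0 for genes that did not pass. For fasting these were -0.027 to 0.024 for Lpin1, -0.23 to 0.20 for Lpin2 and -0.064 to 0.0042 for Dgat1. For HF against Control they were -0.088 to 0.065 for Gpam and -0.45 to 0.23 for Lpin2. For HF+SFC+ALA against HF they were -0.01 to 0.048 for Agpat3, -0.18 to 0.17 for Agpat2 and -0.15 to 0.53 for Lpin2. For high-fat diets against Control they were -0.32 to 0.29 for Lpin2, -0.026 to 0.13 for Gpam and -0.063 to 0.00059 for Dgat1.

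Over all genes, the count for fasting was 278, against 0 with no filter or no trend, 18 with the mean over probe sets, 60 with fasting time alone and 59 to 455 with 1 pool left out. For HF against Control it was 102, against 352 with centring, 0 with no filter, no trend or diet alone, 1 with the mean and 47 to 592 with 1 pool left out. For HF+SFC+ALA against HF it was 0, against 18 with centring, 6 with the filter at the 65th percentile and 0 to 109 with 1 pool left out. For both high-fat diets it was 77, against 255 with centring, 0 with no filter, no trend, the mean or diet alone, and 6 to 622 with 1 pool left out. For the interaction with the high-fat diets it was 102, against 16 with quantile normalization, 23 with centring, 65 with the filter at the 65th percentile, 48 with a pseudocount and 0 with no filter, no trend or the mean. Interactions were not refitted with a pool left out, since that leaves no residual degree of freedom. Through its terms for diet and fasting time, the additive fit compared pools within the same diet or the same fasting time. Pairing by animal or replicate was not possible, because each combination is 1 pool and the labels give no replicate number.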
